A study of Mus musculus with 16 samples.

Results

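Btg2 and 8 immediate early genes (Fos, Fosb, Jun, Junb, Egr1, Ier2, Atf3 and Nr4a1) were followed in mouse quadriceps muscle with and without the mitochondrial fusion gene Mfn2. They were picked by name, because Btg2 had been found higher in Mfn2 knockout (KO) muscle in these same arrays. All 9 were on the array, among 17097 genes represented by a probe set that carries 1 gene symbol. Where a gene had more than 1 such probe set, the one with the highest mean signal was used, which applied to Btg2 and Jun. Since the choice rests on a KO against control difference, every such difference is given here as a description without a test.

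Quadriceps RNA came from 16 mice, with 1 array per mouse and 4 mice in each of 4 groups. These were control mice aged 6 months, Mfn2 KO mice aged 6 months, control mice aged 22 months and Mfn2 KO mice aged 22 months. All were fed standard chow under a regular light cycle. The strain, the sex, the way Mfn2 was deleted and the cells in which it was deleted are not given in the sources used here. The muscle was excised and snap frozen, and values are log2 signals per probe set.

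Immediate early genes are transcribed within minutes of a stimulus, from factors that are already in the cell and need no new protein. In muscle they are known to respond to contraction, stretch, injury and the handling of tissue. Fos and Jun proteins pair to form the AP-1 transcription factor, Egr1 and Nr4a1 are transcription factors of the zinc finger and the orphan nuclear receptor type, and Atf3 is a stress-induced factor related to AP-1. BTG2 is an antiproliferative protein that binds the CCR4-NOT deadenylase, which shortens the poly(A) tails of messenger RNAs, and its gene is a known target of p53.

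All arrays had medians between 4.58 and 4.65. Markers of muscle fibres (8 genes) summed to between 14.8 and 15.1 in log2 signal in all 16 mice. Mfn2 lay between 8.34 and 9.18 in old control mice and at 8.31, 8.01, 6.32 and 8.32 in the 4 old KO mice. Only 1 old KO mouse (replicate 3) was thus far below the old control range, and the others lay nearer to it. In young mice the ranges of Mfn2 overlapped, from 8.03 to 9.45 in control and from 8.38 to 8.54 in KO muscle. The labels number the mice of each group 1 to 4, and arrays with the same number resembled each other across groups. The SD of all values within an array was 1.90 to 1.94 for numbers 1 and 2 and 1.71 to 1.82 for numbers 3 and 4. The labels do not explain the number, so values are shown by number throughout.

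RefSeq promoters (assembly GRCm38.p6) were searched for 7 of the 9 genes. Those of Egr1 and Ier2 were not searched, so the counts below say nothing of these genes. The 250 bases before each transcription start were searched on both strands for TGACG, the core of the cyclic AMP response element through which CREB and ATF factors bind. It was present in 6 of the 7 promoters (Btg2, Fos, Fosb, Junb, Atf3 and Nr4a1), against 17.8% of 32851 promoters of the same length, and was not found in this window of Jun. The full palindrome TGACGTCA stood in the Btg2 promoter alone among the 7, at position -166 from the start, and in 1.55% of all promoters. The 2 matches to the core in the Btg2 promoter overlap each other and lie within this palindrome. The windows below are shown for Btg2, which holds the palindrome, and for 3 AP-1 genes that hold the core alone, each 60 bases long, 5′ to 3′ on the gene's strand. Capitals mark the palindrome in Btg2 and the core in the others.
Btg2, chr1:134079289-134079348, minus strand: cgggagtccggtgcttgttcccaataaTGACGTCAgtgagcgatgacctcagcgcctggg
Fos, chr12:85473797-85473856, plus strand: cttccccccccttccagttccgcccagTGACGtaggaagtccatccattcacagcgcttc
Fosb, chr7:19310073-19310132, minus strand: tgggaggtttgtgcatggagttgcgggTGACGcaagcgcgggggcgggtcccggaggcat
Junb, chr8:84978822-84978881, minus strand: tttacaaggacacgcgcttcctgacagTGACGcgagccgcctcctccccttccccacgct
The core shown starts at position -66 in Fos, where a second one starts at -129, at -60 in Fosb and at -106 in Junb. An EGR motif (GCGNGGGCG) was matched in Btg2, Fosb and Nr4a1, against 4.70% of all promoters. The AP-1 motif TGANTCA (6.75% of all promoters) and the serum response CArG box (1.47%) were matched in 0 of the 7 windows. These are letter matches in a short window and say nothing of which factor binds.

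Btg2 (probe set 1448272_PM_at) was highest in old KO muscle. Its log2 signal was 7.78, 8.05, 7.88 and 8.12 in the 4 old KO mice and 7.47, 7.24, 6.69 and 7.0 in the 4 old control mice, in the order of numbers 1 to 4. All old KO mice lay above all old control mice. In young mice it was 7.78, 7.72, 7.63 and 6.61 in KO and 7.40, 6.93, 6.47 and 7.18 in control muscle. There the groups overlapped, because young KO replicate 4 lay below 3 of the 4 young control mice.

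Expressed as differences, Btg2 was 0.86 higher in KO than in control muscle at 22 months (standard error, SE, 0.26), a fold of 1.81, and 0.44 higher at 6 months (SE 0.26). The group means ran from young control (6.995 ± 0.40, SD, n = 4) through old control (7.10 ± 0.34, SD, n = 4) and young KO (7.44 ± 0.55, SD, n = 4) to old KO (7.96 ± 0.16, SD, n = 4). Each neighbouring pair in this order differed by less than the larger SD of its 2 groups. Without young KO replicate 4 the difference at 6 months was 0.72, and without young control replicate 3 it was 0.26. At 22 months it stayed between 0.72 and 0.98 when any 1 array was left out. The dimmer Btg2 probe set (1416250_PM_at) was 0.87 higher in KO at 22 months and 0.19 higher at 6 months.

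**Figure D1:**
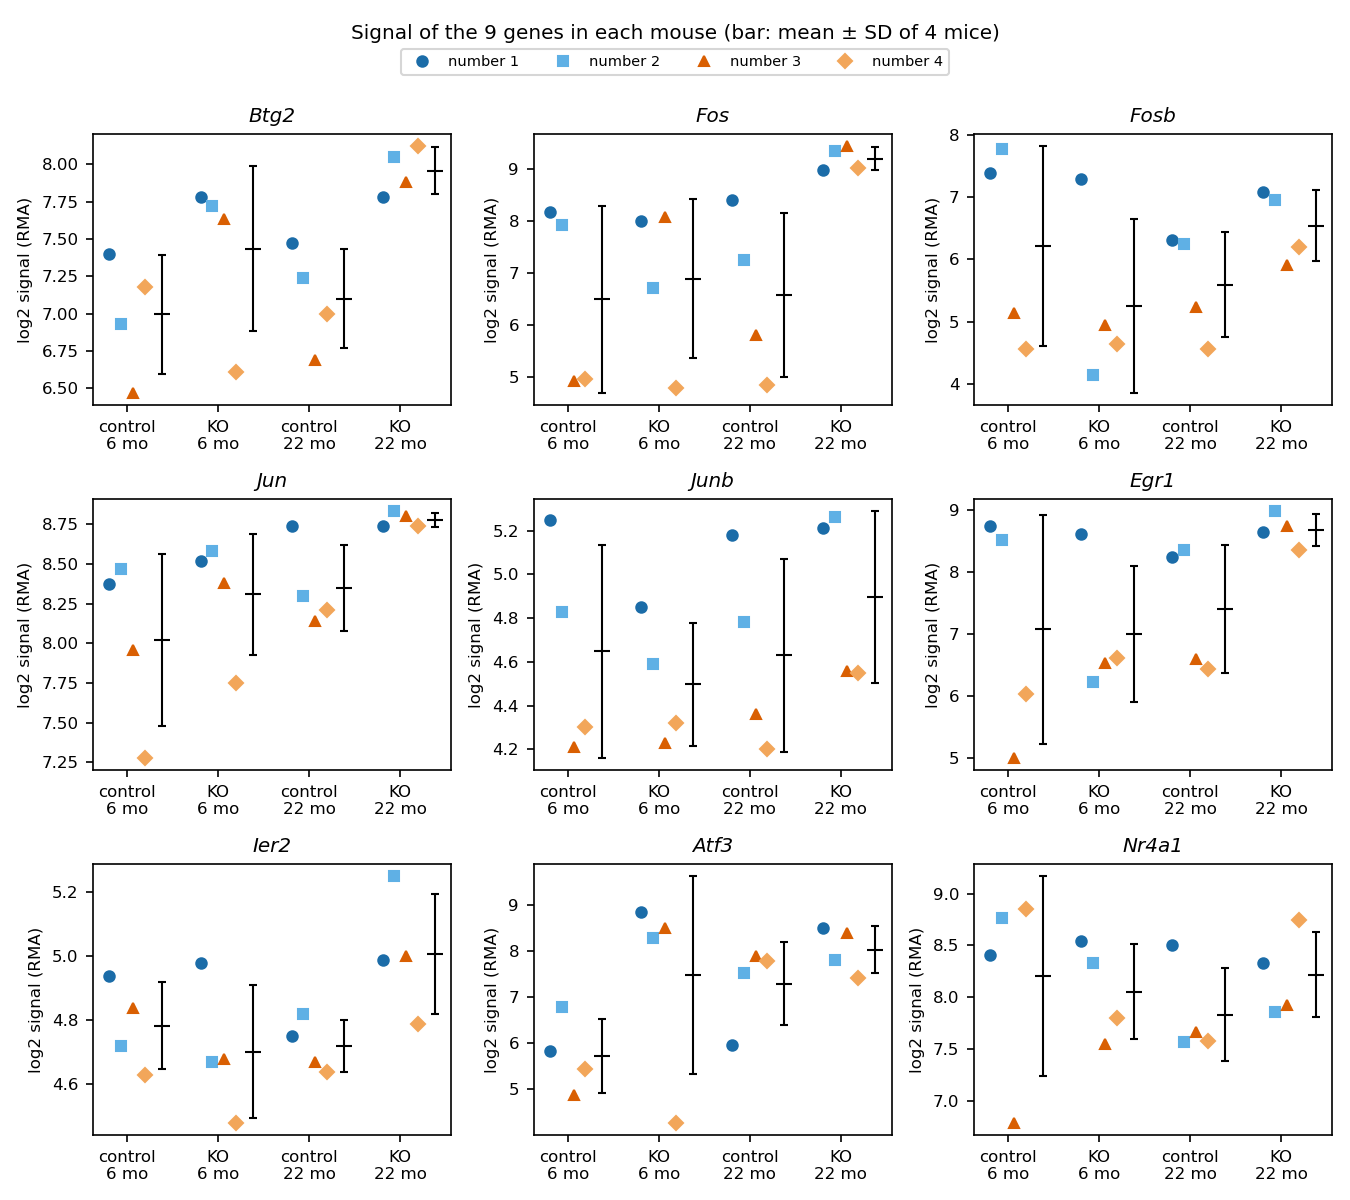
Log2 signal of each of the 9 genes (vertical axis, RMA values) in the 16 mice, by group (horizontal axis). Symbols and colours stand for the replicate numbers of the labels, and the bar is the mean ± SD of 4 mice. Fos and Btg2 in the old KO mice lie above all old control mice, and in control mice Fos, Fosb and Egr1 split between numbers 1 and 2 (high) and numbers 3 and 4 (low).

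Fos (probe set 1423100_PM_at), the founding AP-1 subunit, showed the widest range of the 9 genes over the 8 old mice. Its log2 signal was 8.99, 9.35, 9.44 and 9.03 in old KO mice and 8.40, 7.26, 5.80 and 4.84 in old control mice, numbers 1 to 4. The old KO mice were all high and close together, while the old control mice ran from near their KO counterparts to close to the array median. In young mice it was 8.00, 6.72, 8.07 and 4.79 in KO and 8.17, 7.93, 4.92 and 4.96 in control muscle, with full overlap. The KO against control difference was 2.63 at 22 months (SE 0.89), a fold of 6.19, and 0.40 at 6 months (SE 0.89). Leaving out 1 array moved it between 2.05 and 3.24 at 22 months and between -0.13 and 1.10 at 6 months, where young control replicate 3 and young KO replicate 4 set the bounds and the sign also turned without young control replicate 4 (-0.11). The SD over 4 mice was 0.22 in old KO muscle and 1.53 to 1.80 in the other 3 groups.

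Fosb (1422134_PM_at), a paralogue of Fos that also pairs with Jun proteins, did not keep one sign across ages. It read 7.08, 6.95, 5.91 and 6.20 in old KO mice and 6.31, 6.24, 5.24 and 4.56 in old control mice. Number for number, each old KO mouse lay above the old control mouse. In young mice it read 7.29, 4.14, 4.95 and 4.64 in KO and 7.38, 7.77, 5.14 and 4.56 in control muscle. Young KO replicate 2, at 4.14, was the lowest of all 16 mice while young control replicate 2, at 7.77, was the highest. The KO difference was 0.95 at 22 months and -0.96 at 6 months (SE 0.74 each). Leaving out 1 array moved it to 0.61 at 22 months (without old control replicate 4), and at 6 months to -1.64 (without young KO replicate 1) or -0.44 (without young control replicate 2).

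Jun (1417409_PM_at), the main partner of Fos in AP-1, varied less. It read 8.74, 8.83, 8.80 and 8.74 in old KO mice and 8.74, 8.30, 8.14 and 8.21 in old control mice. The old KO values differed by less than 0.1 among themselves and lay above the old control values, by a margin under 0.01 at old control replicate 1. In young mice it read 8.52, 8.58, 8.38 and 7.75 in KO and 8.37, 8.47, 7.96 and 7.28 in control muscle. Jun was higher in KO in 4 of 4 numbers at each age, by 0.43 at 22 months and 0.29 at 6 months (SE 0.23 each). Without young control replicate 4 the latter was 0.042. A second probe set (1448694_PM_at) gave 0.38 at 22 months and 0.41 at 6 months.

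Junb (1415899_PM_at), a Jun paralogue with weaker transactivation, was dim, with group means between 4.50 and 4.90 and thus close to the array medians. It read 5.21, 5.26, 4.56 and 4.55 in old KO mice and 5.18, 4.78, 4.36 and 4.20 in old control mice. Among young mice Junb read 4.85, 4.59, 4.23 and 4.32 in KO and 5.25, 4.83, 4.21 and 4.30 in control muscle. Numbers 1 and 2 were above numbers 3 and 4 in each group, and the same held over all 16 mice. The KO difference was 0.27 at 22 months and -0.15 at 6 months (SE 0.26 each), where it was 0.054 without young control replicate 1. At 22 months leaving out old control replicate 4 gave 0.12, and leaving out old control replicate 1 gave 0.45.

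Egr1 (1417065_PM_at), a zinc finger factor induced by serum and contraction, resembled Fos in old mice. It read 8.64, 8.98, 8.75 and 8.35 in old KO mice and 8.24, 8.36, 6.60 and 6.44 in old control mice. The old KO mice were all high, and the groups overlapped at old KO replicate 4 and old control replicate 2. In young mice it read 8.62, 6.23, 6.54 and 6.61 in KO and 8.75, 8.52, 5.01 and 6.04 in control muscle. The KO difference was 1.27 at 22 months and -0.08 at 6 months (SE 0.75 each). The sign at 6 months turned, to between 0.051 and 0.48, without young control replicate 1 or 2 or young KO replicate 2, 3 or 4. It also turned with family in the fit (0.24), with family and the replicate number (0.72, SE 0.36) and with arrays scaled to an equal spread (0.032).

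Nr4a1 (1416505_PM_at), an orphan receptor tied to contraction and to glucose use in muscle, overlapped between groups at both ages. It read 8.33, 7.86, 7.93 and 8.75 in old KO mice and 8.50, 7.57, 7.67 and 7.58 in old control mice. In young mice it read 8.54, 8.33, 7.55 and 7.80 in KO and 8.41, 8.77, 6.79 and 8.85 in control muscle. The KO difference was 0.39 at 22 months and -0.15 at 6 months (SE 0.39 each). The sign at 6 months turned, to between 0.019 and 0.065, without young control replicate 2 or 4 or young KO replicate 3, and to 0.054 with family in the fit. At 22 months it was 0.21 without old KO replicate 4 and 0.61 without old control replicate 1.

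Atf3 (1449363_PM_at) differed from the rest in that its larger KO difference was at 6 months. It read 8.85, 8.30, 8.50 and 4.27 in young KO mice and 5.83, 6.78, 4.87 and 5.44 in young control mice. The young KO mice with numbers 1 to 3 were far above all young control mice and the mouse with number 4 was below all of them. In old mice it read 8.50, 7.82, 8.40 and 7.41 in KO and 5.96, 7.53, 7.89 and 7.79 in control muscle, with overlap. The KO difference was 1.75 at 6 months and 0.74 at 22 months (SE 0.79 each), or 2.82 at 6 months without young KO replicate 4. Without old control replicate 1 the difference at 22 months was 0.29.

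Ier2 (1416442_PM_at), a small nuclear protein of the early response, was dim. It read 4.99, 5.25, 5.0 and 4.79 in old KO mice, 4.75, 4.82, 4.67 and 4.64 in old control mice, and between 4.48 and 4.98 in the 8 young mice. The old groups overlapped at old KO replicate 4. The KO difference was 0.28 at 22 months and -0.08 at 6 months (SE 0.12 each).

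Set side by side, all 9 genes had a higher mean in KO than in control muscle at 22 months, with a median difference of 0.74, and 4 of 9 did at 6 months, with a median of -0.08. Over all genes the KO mean was higher for 48.4% at 22 months and 47.8% at 6 months, with medians of -0.0041 and -0.0056. Btg2, Fos and Jun had old KO values that did not overlap old control values, a pattern shown by 0.433% of all genes, and at 6 months 0 members showed it (0.661% of all genes). In 7 members (Btg2, Fos, Fosb, Jun, Junb, Egr1 and Ier2) the KO mouse was higher in 4 of 4 numbers at 22 months, as in 6.46% of all genes, and at 6 months in Jun alone, as in 8.88%. The members were chosen on the KO against control contrast, so these counts describe them and support nothing. The difference between the ages was 2.23 for Fos (SE 1.26), 1.91 for Fosb (SE 1.05), 0.42 for Btg2 (SE 0.36) and -1.01 for Atf3 (SE 1.12), and was not tested.

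**Figure D2:**
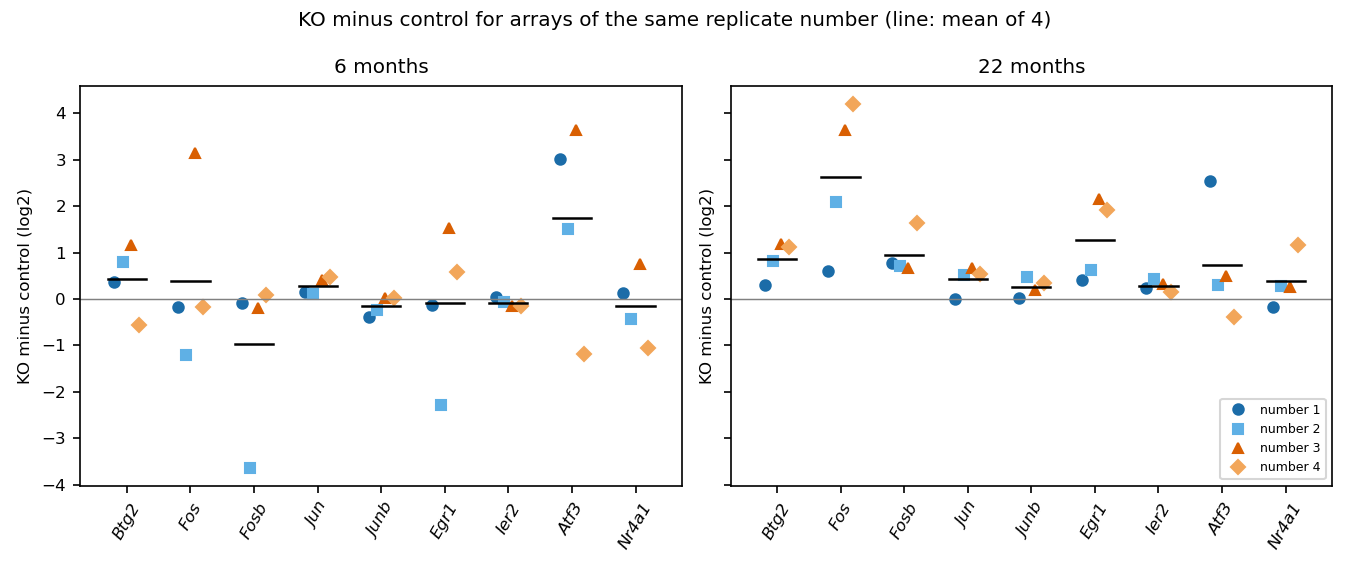
KO minus control log2 signal for arrays of the same replicate number (vertical axis) in each of the 9 genes (horizontal axis), at 6 months (left) and 22 months (right). Points are the 4 numbers and the line is their mean. At 22 months all points of 7 genes lie above 0, and at 6 months the numbers fall on both sides of 0 for every gene except Jun.

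The median spread of the 9 genes within groups was smallest in old KO muscle, but that of Junb and Ier2 was not. The SD of Junb was 0.39 in old KO and 0.28 in young KO muscle. That of Ier2 was 0.19 in old KO and 0.081 in old control muscle. The SD of the 9 genes had a median of 0.80 in young control, 0.55 in young KO, 0.45 in old control and 0.26 in old KO muscle, against 0.19 to 0.22 for the median of all genes in each of the 4 groups. Summed signals of 10 marker lists (fibres, endothelium, macrophages, satellite cells, fibroblasts, fat cells, Schwann cells, lymphocytes, mural and erythroid cells) overlapped between old KO and old control muscle in 10 of 10 lists. At 6 months they overlapped in 9 of 10. The exception was the fat cell list, of which 2 of 4 markers were measured, at 5.13 to 6.84 in young KO and 7.26 to 8.86 in young control muscle, and its part in the 6-month differences was not tested. In a bulk sample fewer cells of a type and less RNA per cell cannot be told apart. Pyruvate carboxylase has control probes near each end of its transcript, and their signal difference, 3′ end minus 5′ end, was -0.32 to 0.14 in old control and -0.14 to 0.23 in old KO muscle, and its part was not tested.

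Family, a further label, was uneven in the old mice, with 3 KO and 1 control mouse in family A, 2 control mice in family B, and 1 mouse of each genotype labelled Other. Families A and B held old mice only, and families C and D young mice only. With family in a fit, old and young mice are thus linked only through the label Other. Age differences and calls for age in such a fit cannot be told apart from family. With family in the fit the KO against control difference at 22 months moved from 0.86 to 0.71 for Btg2 (SE 0.37). It moved from 2.63 to 2.20 for Fos (SE 1.09) and from 0.74 to 1.21 for Atf3 (SE 0.88). For Jun it moved from 0.43 to 0.24 (SE 0.26), and for Junb from 0.27 to 0.039 (SE 0.30). For Nr4a1 it moved from 0.39 to 0.19 (SE 0.45). Within family A the control mouse stood at 8.40 for Fos against 8.99, 9.35 and 9.44 in the KO mice. Between the mice labelled Other it was 4.84 in control and 9.03 in KO muscle.

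The replicate number offers a comparison that is balanced over the groups and was not used to choose the genes. The mean of numbers 3 and 4 minus that of 1 and 2 was -1.62 for Fos (SE 0.43), -1.5 for Fosb (SE 0.34), -1.5 for Egr1 (SE 0.37), -0.41 for Jun (SE 0.11) and -0.65 for Junb (SE 0.07). The pyruvate carboxylase difference did not overlap between the same arrays, at -0.35 to -0.082 in numbers 1 and 2 and -0.0068 to 0.23 in numbers 3 and 4. The same 3′ minus 5′ difference of the Actb and Gapdh control probes did overlap. It was -0.26 to -0.17 against -0.26 to -0.075 for Actb and 0.034 to 0.094 against 0.034 to 0.090 for Gapdh. The part of these differences was not tested. Limma's F test over the 4 numbers gave adjusted p-values of 0.0124 for Fos, 0.00646 for Fosb, 0.0142 for Egr1, 0.0163 for Jun and 9.53e-06 for Junb. Btg2 (-0.35, adjusted p = 0.236), Atf3 (-0.63, adjusted p = 0.305), Ier2 (-0.17, adjusted p = 0.0548) and Nr4a1 (-0.42, adjusted p = 0.0507) did not pass in limma, though Nr4a1 passed in 8 of 26 settings, Ier2 in 6 of 25 and Btg2 in 1 of 26, with the mean of its probe sets (adjusted p = 0.0403). The 5 of 9 called stand beside 66.6% of all genes called by number, so a call here is no property of these genes. Junb alone separated numbers 1 and 2 (4.59 to 5.26) from 3 and 4 (4.20 to 4.56) without overlap, as did 13.9% of all genes.

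The size of these differences depended on the scale of the arrays. With arrays scaled to an equal spread the median of all genes moved from -0.08 to 0.048, and the difference was -1.04 for Fos (adjusted p = 0.0920), -0.89 for Egr1 (adjusted p = 0.202), -1.26 for Fosb (adjusted p = 0.0107) and -0.68 for Junb (adjusted p = 5.23e-06) in limma. Under that scaling the sign turned for Btg2 (0.24), Nr4a1 (0.31) and Jun (0.42, adjusted p = 0.00468 in limma). Leaving out number 4 also ended the calls of Fos (adjusted p = 0.151) and Jun (adjusted p = 0.0981) in limma, and leaving out number 1 those of Fosb (adjusted p = 0.0562) and Egr1 (adjusted p = 0.0504). Jun lost its call as well without young control replicate 4 (adjusted p = 0.0597) or young KO replicate 4 (adjusted p = 0.0666), at differences of -0.33 and -0.37. Fos lost it with family in the fit (adjusted p = 0.0671 in limma), where its difference was -2.09.

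The number also split the groups unevenly. For Fos the mean of numbers 3 and 4 minus that of 1 and 2 was -3.11 in young control, -2.51 in old control, -0.93 in young KO and 0.065 in old KO muscle. For Egr1 the same differences were -3.11, -1.78, -0.85 and -0.26, in the same order. Fosb gave -2.73, -1.38, -0.92 and -0.96, and Junb -0.78, -0.70, -0.45 and -0.68. These genes were picked for display after their values were seen. Only for Fos and Egr1 did the difference rise at each step of this order of groups. In the same order Jun had -0.80, -0.34, -0.49 and -0.01, and Btg2 -0.35, -0.51, -0.63 and 0.086. Nr4a1 had -0.77, -0.41, -0.76 and 0.25, and Ier2 -0.095, -0.13, -0.24 and -0.22. Atf3 ran from -2.19 in young KO to 1.10 in old control muscle. Whether the split differs between genotypes was not tested. Xist, the RNA that silences an X chromosome, was 3.53 to 4.12 in numbers 1 and 2 and 5.47 to 6.26 in numbers 3 and 4, and its part was not tested.

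Age was compared to describe whether old muscle holds more of these transcripts. Over both genotypes the mean was higher at 22 months in 8 of 9 genes, with a median difference of 0.33, where 45.5% of all genes were higher and their median was -0.0091. Macrophage markers were also higher in old mice in 6 of 6 (median 0.46) and erythroid (median 0.58), lymphocyte (0.30) and fat cell markers (0.27) in 2 of 2 each. By contrast 0 of 5 endothelial and 0 of 4 satellite cell markers were higher. Within genotypes the fat cell markers had opposite signs, with 0 of 2 higher in control mice (median -0.902) and 2 of 2 in KO mice (1.445). Of the lymphocyte markers 1 of 2 was higher with age in control mice and 2 of 2 in KO mice. Of all these markers 0 were called for age in limma, with or without the replicate block. In each of these fits 1 of 4 fibroblast markers was called as lower in old mice. The part of these markers was not tested. The difference was 1.19 for Fos (SE 0.63), 1.06 for Atf3 (SE 0.56), 1.01 for Egr1 (SE 0.53) and 0.40 for Jun (SE 0.17). Nr4a1, at -0.11 (SE 0.28), was the only one below 0. Of the 8 genes tested, 0 passed in limma over all genes (adjusted p = 0.9999 for each), beside 0.0585% of all genes called. At an unadjusted p under 0.05 limma gave 1 of the 8 (Jun), and 601 of all genes, or with the replicate block 4 of 8 (Egr1, Fos, Jun and Junb) and 1996 of all genes. With the replicate number as a block, 0 passed as well, with adjusted p-values from 0.158 for Jun to 0.891 for Nr4a1, where 0.579% of all genes were called. Btg2 was 0.31 higher in old mice (SE 0.18) and was not tested, since it had been chosen on these arrays.

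Within genotypes the values differed from gene to gene. In KO muscle 9 of 9 had a higher mean at 22 months (median 0.52), against 5 of 9 in control muscle (median 0.078). Fos was 2.31 higher with age in KO and 0.078 higher in control muscle (SE 0.89 each), and Egr1 1.68 and 0.33 (SE 0.75 each). Fosb was 1.28 higher in KO and 0.62 lower in control muscle (SE 0.74 each), or 1.96 higher in KO without young KO replicate 1. In control muscle it was -0.10 without young control replicate 2 and -1.18 without young control replicate 4. Atf3 ran the other way, 0.55 higher with age in KO and 1.57 higher in control muscle (SE 0.79 each), and was higher in the old control mouse in 4 of 4 numbers.

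In KO mice 0 of the 8 genes passed (limma adjusted p = 0.9999 for each, or from 0.178 for Junb to 0.894 for Nr4a1 with the block), with 0.0175% of all genes called, or 0.0234% with the block. The count at an unadjusted p under 0.05 was 3 of 8 (Fos, Egr1 and Ier2), with 443 of all genes, or 6 of 8 with the block, with 1751 of all genes. In control mice 0 of 8 passed in limma, with 0 of 8 at an unadjusted p under 0.05 (363 of all genes), and 0% of all genes called. With the block 0 of 8 passed too, beside 0.0468% of all genes, and 1 of 8 (Atf3) had an unadjusted p under 0.05 in limma, as had 1648 of all genes. Old KO values did not overlap young KO values in 3 members, Btg2, Fos and Jun, as in 0.924% of all genes. For Btg2 the lowest old KO and the highest young KO mouse, both with number 1, were equal to the digits printed (7.78). In control mice 0 members had old values above all young ones (0.749% of all genes). The old KO arrays in this comparison are those that set the KO against control difference at 22 months, so it is no separate evidence. Without young KO replicate 4, the array low in Btg2, Fos, Jun and Atf3, the age difference in KO mice was 1.61 for Fos, 0.25 for Btg2, 0.28 for Jun and -0.52 for Atf3. The difference between the age effects of the genotypes was not tested.

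**Figure D3:**
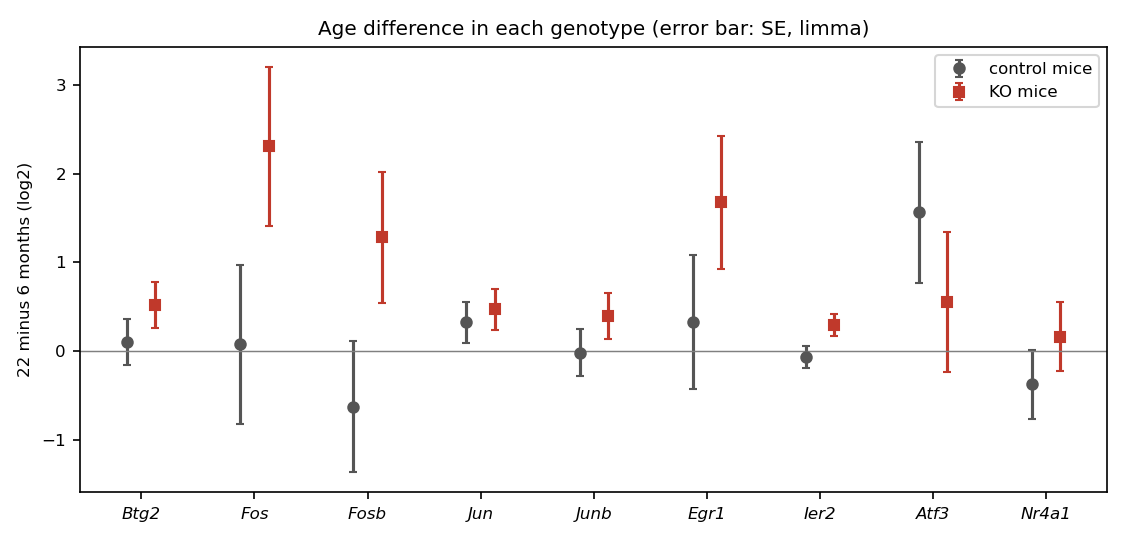
Difference between 22 and 6 months (vertical axis, log2) for each gene (horizontal axis) in control mice (circles) and KO mice (squares), with error bars of 1 SE from limma. Fos and Egr1 lie at 2.31 and 1.68 in KO mice and near 0 in control mice, while Atf3 is higher in control mice, and the bars are wide for Fos, Fosb, Egr1 and Atf3.

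The genes varied together from mouse to mouse. After removal of the group means, which keeps the KO against control difference out, the 36 pairs had a median Pearson r of 0.52 over 16 arrays, and 35 of them were above 0. The median over all pairs of all genes was 0.031, with the replicate number still in these values. Of all genes called by number, 4657 had a positive and 6734 a negative difference between the numbers, so pairs of both signs arise. For the 9 members that difference was negative throughout. The contrast of the medians thus cannot tell variation shared by these genes from that of the number. A permutation test of arrays within groups, two-sided with 100000 resamples and adjusted over the 36 pairs, was passed by 4 pairs. Fosb and Egr1 had r = 0.91 (permutation p = 0.0035, adjusted 0.042) and Spearman rho 0.89. Fos and Jun had r = 0.82 (permutation p = 0.00526, adjusted 0.0473) and rho 0.85. Junb and Egr1 had r = 0.79 (permutation p = 0.00252, adjusted 0.042) and rho 0.83, and Fosb and Junb r = 0.79 (permutation p = 0.0019, adjusted 0.042) and rho 0.79. The adjusted permutation p of rho was 0.0298 for each of the 4. These p-values exchange arrays of different replicate numbers, although same-numbered arrays resemble each other, so they do not account for the number. Without the 2 arrays farthest from the median of the first gene, r was 0.87, 0.74, 0.74 and 0.83 in that order.

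The values were lower once the replicate number was removed. With it removed as well the median r of the 36 pairs was 0.22, with 29 above 0 (0.0011 over all pairs of all genes). Fosb and Egr1 then had r = 0.81, Fos and Egr1 0.73, Btg2 and Fos 0.66 and Fos and Jun 0.59, while Fosb and Junb had 0.24 and Junb and Egr1 0.42. Within the 8 arrays of numbers 1 and 2, and within the 8 of numbers 3 and 4, the median r was 0.33 and 0.14. Each group adds only 1 difference between its 2 arrays to such an r, so these values are imprecise. Fosb and Egr1 gave 0.96 in the first set and -0.57 in the second. Fos and Jun gave 0.53 and 0.62.

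Btg2 was closest to Fos, with r = 0.71 (permutation adjusted p = 0.0739; 0.52 and 0.66 within the 2 sets of numbers), and to Nr4a1, with r = 0.57 (permutation adjusted p = 0.125). With Atf3 its r was 0.50 (permutation adjusted p = 0.283). It rested on 2 arrays, since without the 2 arrays farthest from the Btg2 median it was -0.25. Without the same arrays r was 0.52 with Fos and 0.41 with Nr4a1. With the number removed r was 0.66 with Fos, 0.53 with Atf3 and 0.49 with Nr4a1. Spearman rho was 0.73 with Fos, 0.64 with Jun and 0.49 with Nr4a1, so the order after Fos depended on the measure.

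**Figure D4:**
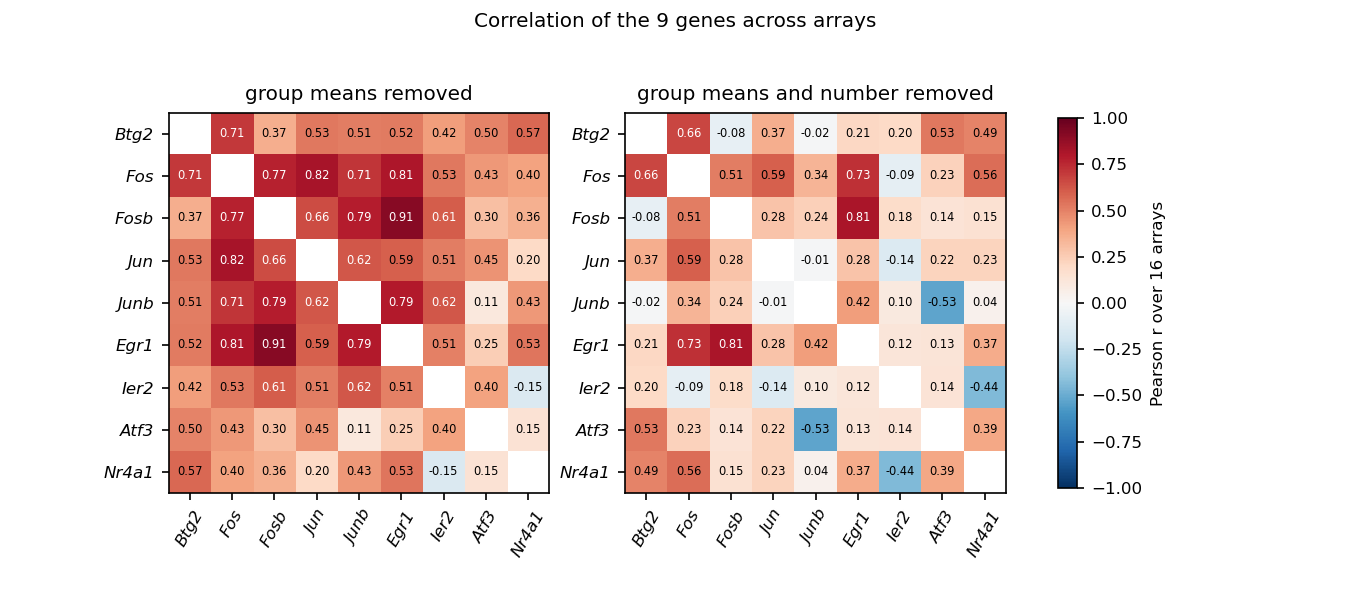
Pearson r between the 9 genes across 16 arrays after removal of group means (left) and of group means and replicate number (right), with the colour scale from -1 to 1. On the left all pairs except Ier2 with Nr4a1 are above 0, and on the right Fosb with Egr1 and Fos with Egr1, Btg2 and Jun keep the highest values.

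Among the genes that are no members, those most like Btg2 across the 16 arrays, with group means removed, were Klf6 (r = 0.87), Errfi1 (0.85), Sik1 (0.83), Abcc10 (0.83) and Jph3 (0.83). Klf6 encodes a zinc finger factor, Errfi1 a feedback inhibitor of the EGF receptor and Sik1 a salt-inducible kinase, and all 3 are known as early-response genes and stand in the lists below. Klf6 was 0.40 higher in KO at 22 months and 0.11 lower at 6 months, Sik1 0.30 higher and 0.08 lower, and Errfi1 0.19 higher at 22 months. Nearest to the mean of the 9 standardised genes were Kcnh2 (r = 0.94), Ttc12 (0.93), Tmem204 (0.92), Fam118a (0.92) and Ccn1 (0.92). Kcnh2, Ttc12, Fam118a and Jph3 were dim, with group means of 4.62 at most, near or below the array medians. With the number removed as well, other genes came first (Itih1 for Btg2 at 0.95 and Bcas2 for the mean at 0.96), and none of the 5 nearest to Btg2 before was among the 5 nearest then.

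Related genes were read from lists. Of 27 measured feedback genes of the early response, 23 were higher at 22 months (median 0.095), and 0 passed in limma over all genes. With the replicate block 1 passed: Ccn1, a secreted matricellular protein, rose by 0.98 on the log2 scale (SE 0.16, limma adjusted p = 0.0109), beside 0.579% of all genes called. It kept this call in 16 of 16 runs that left out 1 array, but not without the block (limma adjusted p = 0.729) or with family and the block (1.51, SE 0.25, limma adjusted p = 0.123). Cebpd, a bZIP factor, was 0.88 higher (SE 0.29), Gadd45a, a growth arrest gene, 0.86 (SE 0.35), and Dusp1, a phosphatase that switches off MAP kinases, 0.46 (SE 0.22), and none of them passed. Between genotypes, 20 of the 27 had a higher mean in KO at 22 months (median 0.16) and 13 at 6 months (median -0.0199). Gadd45a was 1.07 higher in KO at 22 months and 0.30 lower at 6 months, and Dusp1 0.66 and 0.11 higher.

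Among 9 AP-1 and related bZIP partners, 2 were higher with age and 0 passed in either limma fit. Between genotypes 7 of 9 had a higher mean in KO at 22 months (median 0.084) and 3 at 6 months (median -0.06). Jund, the Jun paralogue that is present without a stimulus, was 0.28 higher with age (SE 0.15), and 0.51 higher in KO at 22 months and 0.24 higher at 6 months. Mafk, a small Maf protein, was 0.20 higher in KO at 22 months and 0.31 at 6 months. Batf and Batf3, AP-1 partners known from immune cells, differed by -0.16 and -0.15 at 22 months and by -0.075 and -0.19 at 6 months. Of 13 Egr, Nr4a, Ier and Klf paralogues and Myc, 7 were higher with age and 0 passed, and 10 had a higher mean in KO at 22 months (median 0.21) against 5 at 6 months (median -0.0483). Egr2 was 0.50 higher in KO at 22 months and 0.12 at 6 months, and Myc 0.45 higher and 0.07 lower.

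Partners of Btg2 were also read. Its relatives Btg1, Btg3, Btg4, Tob1 and Tob2 were within 0.32 of control in KO at both ages, 3 of 5 were higher with age and 0 passed. Btg3 had the largest mean KO difference of these 5, 0.32 at 22 months and 0.069 at 6 months. Of 8 measured CCR4-NOT subunits, 8 had a higher mean in KO at 6 months (median 0.088) and 3 at 22 months (median -0.0204), and 0 passed for age. Among 18 measured kinases and factors upstream of these genes, 7 were higher with age and 0 passed. With the block Mrtfa, a coactivator of serum response factor, fell with age by 0.46 (SE 0.09, limma adjusted p = 0.0448), beside 0.579% of all genes called. The call was kept in 4 of 16 runs without 1 array and lost without the block (limma adjusted p = 0.9999). It was also lost with family and the block (-0.29, SE 0.19, limma adjusted p = 0.798). Srf itself was 0.27 lower (SE 0.11) and did not pass.

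Other pathways that share a member were also read. Of 17 measured p53 targets, the class to which Btg2 belongs, 6 had a higher mean in KO at 22 months and 10 at 6 months (medians -0.0275 and 0.092). Cdkn1a, the p53-induced cell cycle inhibitor, was 0.035 higher in KO at 22 months, and 0.93 higher with age (SE 0.29), which did not pass. Polk, a DNA polymerase that copies past damage, differed by -0.46 at both ages (SE 0.12 for their mean). The 2 p53 targets called for age with the block, beside 0.579% of all genes, were Eda2r and Sesn1, which were 0.96 and 0.23 higher in KO at 22 months. Neither passed in limma without the block (adjusted p = 0.715 and 0.9999) or with family and the block (adjusted p = 0.0825 and 0.732). Of 14 measured genes of the integrated stress response, which induces Atf3, 10 had a higher mean in KO at 22 months (median 0.085) and 7 at 6 months (median 0.021), and 0 passed for age in either limma fit. Chac1, an enzyme of this response that degrades glutathione, was 0.51 higher in KO at 22 months and 0.055 at 6 months. Ddit4, an inhibitor of mTORC1 signalling, differed by -0.24 at 22 months and -0.75 at 6 months.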

How the data were processed

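RNA of quadriceps from 16 mice was hybridised to Affymetrix arrays, after amplification from 25 ng of total RNA per the labels. The authors deposited log2 values, 1 per probe set, made with RMA and the affy package, per the submitters' processing notes, whose versions are not given. RMA comprises background correction, quantile normalization and median polish, and quantile normalization can hide shifts common to all genes. The table held 45141 probe sets, 104 of them controls that were left out. Of the rest 28898 carried 1 symbol in the supplied probe table, 551 several and 15588 none, which gave 17097 genes, unfiltered.

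Groups were compared with limma 3.58.1 (R 4.3.3), with 1 mean per group over all 16 arrays, a trend in the empirical Bayes step, two-sided tests and Benjamini-Hochberg adjustment (threshold 0.05). The members, lists and tests were chosen with earlier results of these data known. Named genes were the members, the 5 nearest to Btg2 or to the members' mean by r, and list genes with the smallest age p or the largest mean KO difference (up to 4 of each per list, some of which are described) or with a call. Older symbols of 5 list genes were matched through RefSeq synonyms. The procedures were tested on simulated data. In the simulation for limma the noise was independent between arrays, unlike in these data. Same-numbered arrays correlated between 0.289 and 0.780 (24 pairs) after removal of group means, so the number was also fitted as a block. Alternatives were the block, family, both, the mean of probe sets, a minimum mean level of 5, scaled arrays, no trend, and leaving out arrays or numbers. Leave-outs and family for list genes called with the block were added after seeing the data. The number of arrays limits the precision. Figures were drawn with matplotlib 3.10.9.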

Additional observations from a re-analysis of the deposited data

Results flagged for a closer look

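In 4 of 36 combinations of gene and group, 1 mouse stood far from the other 3 of its group. It was past the critical value of Dixon's ratio of gap to range, where chance flags about 1 in 20. The combinations share arrays and genes that vary together, and no share over all genes was available. The count is thus a description only. Young KO replicate 4 was low for Btg2, at 6.61 against 7.63 to 7.78, and for Atf3, at 4.27 against 8.30 to 8.85. Young KO replicate 1 was high for Egr1, at 8.62 against 6.23 to 6.61. Old control replicate 1 was high for Nr4a1, at 8.50 against 7.57 to 7.67.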

How the results depend on the processing

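The genes called for age over both genotypes (10) became 99 with the replicate block, 23 with the minimum level, 0 with family and 1 with family and the block, and 0 to 13 when arrays or numbers were left out. Those for age in control mice (0) became 8 with the block and 1 with family and the block, and 0 to 1 with arrays left out. Those for age in KO mice (3) became 4 with the block, 0 with family, 1 with family and the block and 0 with scaled arrays, and 0 to 4 with arrays left out. Genes called by replicate number (11391) were 6279 with the minimum level, where 9117 genes were tested, and 8355 to 11314 with arrays left out. Of the members 8 were higher in KO over both ages, and 6 to 9 with arrays left out. The median r of the 36 pairs (0.52) was 0.22 with the number removed and 0.61 with no mean removed. With the block 0 members changed their call for age, and 0 of 8 members passed for age in any alternative. In the fits with family, old and young mice share only the label Other, so age and family cannot be told apart there. Signs of small age differences turned. With family they turned for Fosb (-0.0061) and Junb (-0.23) over both genotypes, for Fos (-0.0483) and Egr1 (-0.20) in control mice, and for Junb (-0.17) and Nr4a1 (-0.12) in KO mice. Junb in control mice was 0.0038 with scaled arrays, and Ier2 0.00069 with family and the block. With arrays or numbers left out, differences that took both signs ran from -0.53 to 0.66 for Fos, from -0.36 to 0.89 for Egr1 from -0.20 to 0.19 for Junb and from -0.072 to 0.24 for Btg2 in control mice. Btg2 there (0.10) was 0.51 with family and the block. They ran from -0.52 to 1.01 for Atf3 and from -0.10 to 0.37 for Nr4a1 in KO mice, and from -0.35 to 0.14 for Nr4a1 over both genotypes. Without young KO replicate 1 the age count over both genotypes was 5. For the replicate number, scaled arrays turned Btg2 (0.24), Jun (0.42) and Nr4a1 (0.31). The causes were not tested, and 4 mice per group limit all of these.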
